A study of Mus musculus with 15 samples.

Results

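Expression of 10 genes for enzymes that build or break down triglyceride was followed in mouse liver. The genes were Gpam, Agpat2, Agpat3, Lpin1, Lpin2, Dgat1, Dgat2, Mogat1, Pnpla2 and Pnpla3. They were taken by gene symbol from a table of 17527 genes, and all 10 were found in it. RNA had been sequenced from 15 liver samples in 3 groups of 5, in a study of a bile powder in diet-induced nonalcoholic steatohepatitis. The control group is labelled only as control. The model group ate for 20 weeks a diet with 60% of its energy from fat, 20% from protein and 20% from carbohydrate and with 0.2% cholesterol, and drank water holding 42 g/L of sugar, of which 55% was sucrose and 45% fructose. The BBBPH group had the same diet and water and, after week 12, a daily oral dose of 150 mg/kg of biotransformed bear bile powder, while the model group was given saline. The diet of the control mice and the strain, sex and age of all mice are not given in the sources used here. Libraries are called by their group and the number in their label, such as model 1_4, and the labels do not say what these numbers mark.

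Hepatocytes make triglyceride mainly by the glycerol phosphate route, in which fatty acids are added in turn to glycerol 3-phosphate, the phosphate is removed by a lipin, and a diacylglycerol acyltransferase adds the last fatty acid. A side route starts from monoacylglycerol. Triglyceride is stored in lipid droplets, from whose surface lipases release fatty acids again, and the liver is known for filling with such droplets in fatty liver disease.

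The values were FPKM (fragments scaled to the length of the gene model and to the depth of the library), so that levels of different genes are compared per length. Depth read back from the values was 35395712 to 39624160 fragments per library. The summed level of 8 hepatocyte markers was 65481 to 73479 FPKM in the control, 35604 to 61524 in the model and 61170 to 69936 in the BBBPH libraries, lowest in model 1_4. A list of 8 pancreatic acinar markers summed to 3682 FPKM in BBBPH 2_2 and to under 4.0 in every other library, and 7 skeletal muscle markers summed to 358 FPKM in control 2_1. Values without model 1_4 and BBBPH 2_2, or without these and control 2_1, are given beside the results whose calls they change. In bulk liver, fewer cells of a type and less RNA per cell cannot be told apart. P-values measure the spread between these libraries, and the labels do not state that each came from a separate animal.

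The windows before the start sites of the 4 members with the largest ratios between group means are shown. Their link with expression was not tested. They are the bases before the RefSeq transcript start on build GRCm38.p6, read 5′ to 3′ on the gene's strand. RefSeq windows were matched for 8 of the 10 members, some with several starts. Each was searched on both strands for AGGTCA (bound by nuclear receptors), a direct repeat of it with 1 spacer base (each match of which also holds AGGTCA), TCACNCCAC (a sterol regulatory element), CACGTG (an E-box), CCAAT (the CCAAT box), GGGCGG (a GC box) and TATAAA (the TATA box). Matches are in capitals. The Mogat1 window is chr1:78510810-78510990 on the plus strand and is cut to 181 bases, which leaves out an annotated exon. The others are 250 bases long, at chr7:141454938-141455187 on the plus strand for Pnpla2, at chr12:16610967-16611216 on the minus strand for Lpin1 and at chr15:84167566-84167815 on the plus strand for Pnpla3.
Mogat1: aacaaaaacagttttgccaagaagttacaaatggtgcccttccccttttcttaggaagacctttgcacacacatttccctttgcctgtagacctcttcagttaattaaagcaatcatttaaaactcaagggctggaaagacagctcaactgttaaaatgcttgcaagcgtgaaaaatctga
Pnpla2: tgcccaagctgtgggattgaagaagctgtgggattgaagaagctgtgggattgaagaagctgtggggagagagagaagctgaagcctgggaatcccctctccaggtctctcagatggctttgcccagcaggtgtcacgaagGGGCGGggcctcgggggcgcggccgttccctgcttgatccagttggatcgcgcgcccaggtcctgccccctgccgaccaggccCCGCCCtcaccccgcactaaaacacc
Lpin1: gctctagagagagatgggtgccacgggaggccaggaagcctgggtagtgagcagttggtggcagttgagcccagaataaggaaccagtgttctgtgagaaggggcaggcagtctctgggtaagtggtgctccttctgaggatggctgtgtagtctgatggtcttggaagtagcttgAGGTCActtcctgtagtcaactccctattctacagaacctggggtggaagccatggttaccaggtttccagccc
Pnpla3: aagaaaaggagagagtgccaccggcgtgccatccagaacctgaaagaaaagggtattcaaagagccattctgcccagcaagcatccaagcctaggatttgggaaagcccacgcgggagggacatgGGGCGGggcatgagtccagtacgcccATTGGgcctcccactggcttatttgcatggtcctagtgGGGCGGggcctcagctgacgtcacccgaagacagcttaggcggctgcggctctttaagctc
Pnpla2 held 2 GC boxes, Pnpla3 held 2 GC boxes and 1 CCAAT, and Lpin1 held 1 AGGTCA, at 74 to 69 bases before its start. None of these letters was in the Mogat1 window. Over all 32851 RefSeq windows of 250 bases, 32.7% held GGGCGG, 33.8% held CCAAT and 14.0% held AGGTCA. The shares for the other motifs were 12.4% for TATAAA, 6.02% for CACGTG, 1.05% for TCACNCCAC and 0.0335% for the direct repeat. A match is a description of the letters only.

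The 3 widest changes among the tested members were those of Mogat1, Lpin1 and Pnpla2. Mogat1 was 23.8-fold higher in model than in control livers (4.75 against 0.200 FPKM), or 42.2-fold without control 1_1, and its mean was 0.473 FPKM in BBBPH livers. Pnpla2 was lower in model livers than in both other groups. Lpin1 was lowest in BBBPH livers. Pnpla3, at very low levels, had at most 5 fragments in a model library.

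**Figure D1:**
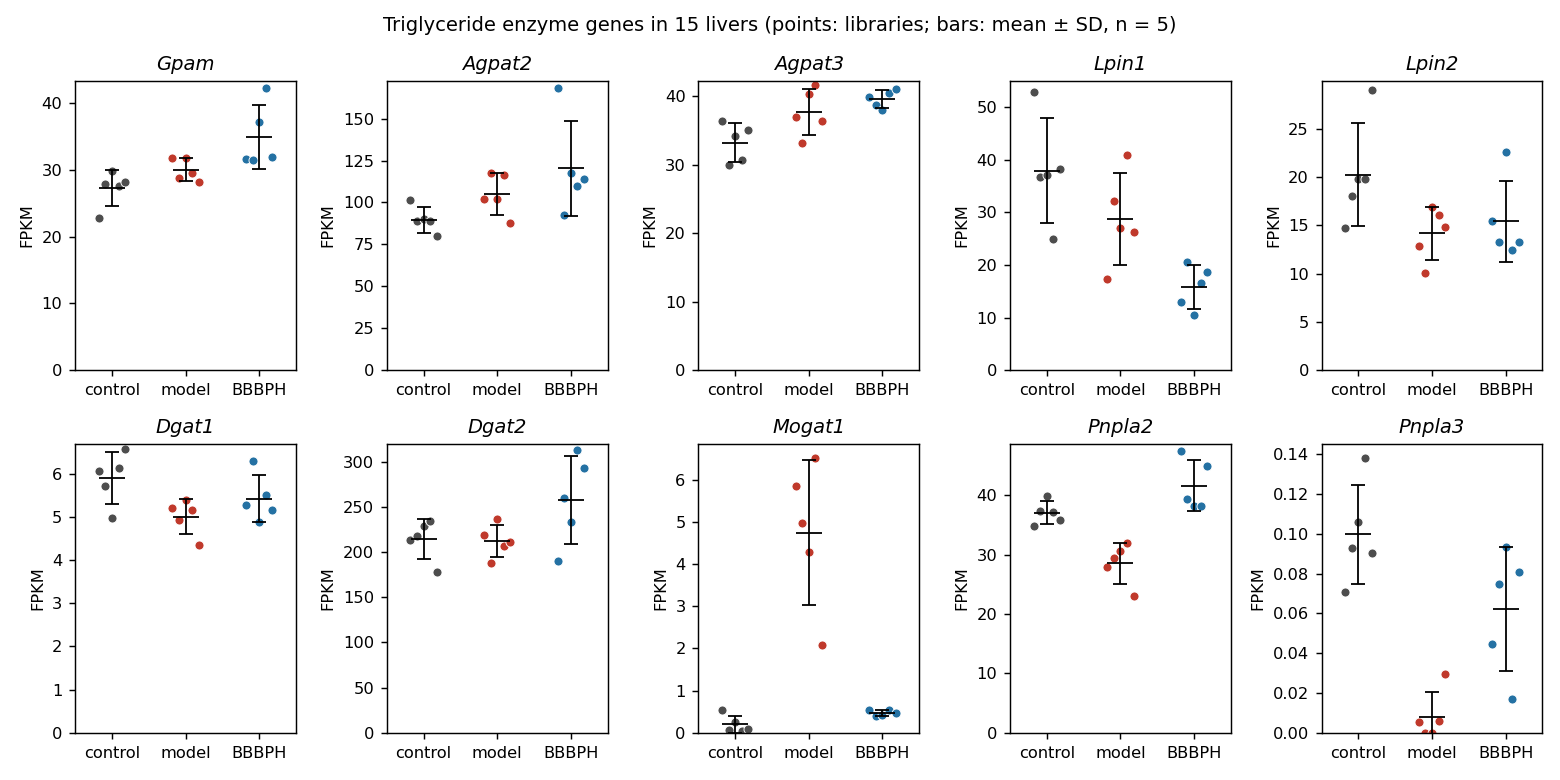
FPKM of the 10 genes (vertical axes from 0) in control, model and BBBPH libraries, 1 point per library, with the mean and SD of each group of 5. The model libraries of Mogat1 lie between 2.08 and 6.52 FPKM, all above the others, and those of Pnpla2 lie between 23.0 and 31.9 FPKM, all below the others.

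Each gene with a mean of at least 1 FPKM over the 15 libraries was tested with limma on log2(FPKM + 1), and p-values were adjusted over the 9575 genes tested. An adjusted p under 0.05 made a call. On this scale the fold change of a gene at a low level is understated. Of the 10 members 9 were tested, and Pnpla3 was below the filter. Mogat1 reached a mean of 1 FPKM only in the model group, so it entered the test through the group in which it is high.

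In model against control libraries, 3 of the 9 tested members were called (Mogat1 higher, Pnpla2 and Lpin2 lower), where 38.6% of all tested genes were called, 29.9% higher and 8.64% lower. The groups did not overlap for 2 of them, Mogat1 and Pnpla2, against 23.9% of all tested genes (18.8% higher, 5.07% lower). In BBBPH against model libraries, 3 members were called (Pnpla2 higher, Mogat1 and Lpin1 lower), against 26.5% of all genes, 14.2% higher and 12.2% lower. The groups did not overlap for Mogat1 and Pnpla2, against 17.0% of all genes (9.11% higher, 7.90% lower). In BBBPH against control libraries, 4 members were called (Gpam, Agpat2 and Agpat3 higher, Lpin1 lower), against 28.1% of all genes, 24.4% higher and 3.70% lower. The groups did not overlap for 3 of them, Gpam, Agpat3 and Lpin1, against 17.5% of all genes (15.3% higher, 2.22% lower). The shares of members called are based on 9 genes.

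The median log2 difference of the 9 members was -0.01, 0.10 and 0.25 in these 3 comparisons, beside 0.12, 0.02 and 0.13 over all genes tested. The comparisons share libraries, so they are not independent of each other. Calls over all genes leaned upward against control, with 2865 higher and 827 lower in model and 2337 higher and 354 lower in BBBPH libraries. With libraries rescaled by median ratios these became 1483 higher and 1809 lower, and 667 higher and 944 lower, and the median difference over all genes moved to -0.01 in both. Relative to the median of all genes, the differences of Mogat1 were 2.10 in model against control and -1.92 in BBBPH against model.

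**Figure D2:**
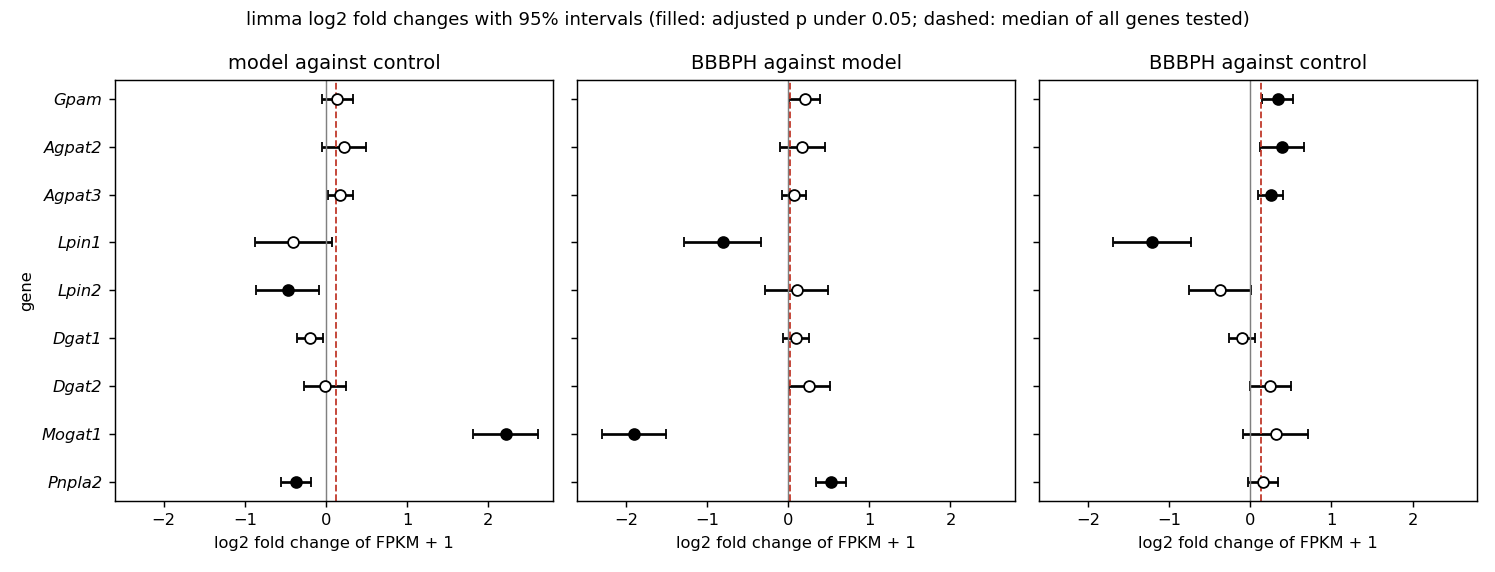
Difference in log2(FPKM + 1) of the 9 tested members (horizontal axes) in the 3 comparisons, with 95% intervals from limma. Filled points were called, and the dashed line marks the median of all tested genes, such as 0.12 in model against control. Mogat1 lies furthest from 0 in the left and middle panels and Lpin1 in the right panel.

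Levels per length differed widely among the members. Dgat2 had the highest mean FPKM in each group and Agpat2 the next, and they stood at or above 98.2% and 96.4% of all genes by their mean over the 15 libraries. Lpin1, Pnpla2, Agpat3 and Gpam followed in control livers with means from 38.0 down to 27.3 FPKM. Neighbours in that stretch (Lpin1 with Pnpla2, and Pnpla2 with Agpat3) differed by less than the sum of their SDs. Lpin2 and Dgat1 came next, and Mogat1 and Pnpla3 were the lowest in every group. In BBBPH livers Lpin1 (15.8 FPKM) stood beside Lpin2 (15.4 FPKM), and in model livers Mogat1 (4.75 FPKM) stood beside Dgat1 (5.00 FPKM), in both cases closer than their SDs. The gene models behind the FPKM were longer than the annotated exons for Lpin2 (22389 against 12233 bases) and Pnpla3 (4689 against 1548 bases), so that their levels against other genes rest on those lengths.

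Gpam encodes the mitochondrial glycerol-3-phosphate acyltransferase, which adds the first fatty acid to glycerol 3-phosphate, and lies at chr19:55067268-55127238 (GRCm38, minus strand). Its FPKM were 22.8, 28.0, 29.8, 27.5 and 28.3 in control 1_1, 1_5, 2_1, 2_2 and 3_4. They were 31.8, 28.8, 31.9, 29.6 and 28.2 in model 1_1, 1_4, 2_1, 2_3 and 3_4. They were 31.6, 31.5, 37.2, 42.3 and 32.0 in BBBPH 2_1, 2_2, 3_1, 3_2 and 3_4. All BBBPH libraries lay above all control libraries, with BBBPH 3_2 the highest, while model libraries overlapped both other groups. Gpam rose 1.28-fold in mean FPKM from 27.3 ± 2.67 in control to 34.9 ± 4.79 (SD, n = 5) in BBBPH livers, a log2 difference of 0.34 (SE 0.09, limma adjusted p = 0.0121). The model mean of 30.04 ± 1.69 differed from neither beyond the test (limma adjusted p = 0.232 against control and 0.110 against BBBPH). With median-ratio scaling the difference between BBBPH and control was 0.17 (limma adjusted p = 0.159), and with quantile scaling it was 0.23 (adjusted p = 0.0736). The difference between model and control, 0.14, became -0.01 with median-ratio scaling.

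Agpat2 and Agpat3 encode acylglycerol-phosphate acyltransferases of the endoplasmic reticulum. Agpat2 makes phosphatidic acid in this route and is known for the loss of body fat when it is mutated, and it lies at chr2:26593057-26604417 on the minus strand. Its FPKM were 102, 88.8, 90.0, 89.0 and 79.7 in the control libraries, in the order given for Gpam. In the model libraries they were 102, 117, 102, 116 and 87.5. In the BBBPH libraries they were 168, 92.4, 118, 110 and 114. BBBPH 2_1 stood highest of all, and BBBPH 2_2 lay within the control range, so that these groups overlapped. Agpat2 rose 1.34-fold in BBBPH against control livers, from 89.8 ± 7.75 to 120 ± 28.3 FPKM (SD, n = 5), a log2 difference of 0.39 (SE 0.13, limma adjusted p = 0.0328). The call was lost without BBBPH 2_1 (0.27, limma adjusted p = 0.0556), without control 1_5, 2_1, 2_2 or 3_4 or BBBPH 3_1 (adjusted p from 0.0517 to 0.0739), with library weights (adjusted p = 0.0668), with no filter (adjusted p = 0.0571), with median-ratio scaling (0.22, adjusted p = 0.292) and with quantile scaling (0.30, adjusted p = 0.153). The model mean was 105 ± 12.3 FPKM (limma adjusted p = 0.188 against control and 0.340 against BBBPH). Exons of Agpat2 share 64 bases with Egfl7 on the opposite strand, and reads there cannot be told apart, as the strand setting of the counting is not stated.

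Agpat3, at chr10:78269178-78352489 on the minus strand, is a related acyltransferase that also acts on phospholipids. Control libraries were at 36.3, 29.9, 34.2, 30.6 and 35.0 FPKM and BBBPH libraries at 39.9, 38.7, 37.9, 40.4 and 41.0. Model libraries were at 37.0, 33.1, 40.3, 41.6 and 36.3 FPKM. The lowest BBBPH library was above the highest control library, and model 1_4 and 3_4 lay within the control range. Mean FPKM was 33.2 ± 2.82 in the control, 37.7 ± 3.39 in the model and 39.6 ± 1.26 in the BBBPH livers (SD, n = 5). Agpat3 rose by a log2 difference of 0.25 (SE 0.07, limma adjusted p = 0.0182) in BBBPH against control libraries, which median-ratio scaling reduced to 0.08 (adjusted p = 0.475) and quantile scaling to 0.14 (adjusted p = 0.195). The difference of 0.18 between model and control missed the threshold (limma adjusted p = 0.0622) and passed it without model 1_4 (0.22, adjusted p = 0.0225), without model 1_4 and BBBPH 2_2 (0.22, adjusted p = 0.0291), without these and control 2_1 (0.23, adjusted p = 0.0379), without control 1_1 (0.21, adjusted p = 0.0419) and with library weights (0.25, adjusted p = 0.00592). Relative to the median of all genes, the BBBPH against control differences of Gpam, Agpat2 and Agpat3 were 0.21, 0.26 and 0.12.

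Lpin1 fell in BBBPH livers against both other groups. It encodes lipin 1, a phosphatidic acid phosphatase that makes diacylglycerol and that also acts in the nucleus as a coregulator of fatty acid oxidation genes, and lies at chr12:16535669-16610966 on the minus strand. Control libraries were at 52.9, 36.7, 37.0, 25.0 and 38.2 FPKM. Model libraries were at 17.3, 32.2, 27.1, 41.0 and 26.3 FPKM. BBBPH libraries were at 12.9, 20.6, 10.5, 16.6 and 18.7 FPKM. All BBBPH libraries lay below all controls, and all but BBBPH 2_2 and 3_4 lay below the lowest model library, model 1_1. Mean FPKM was 38.0 ± 9.90 in the control, 28.8 ± 8.69 in the model and 15.8 ± 4.14 in the BBBPH livers (SD, n = 5). The BBBPH mean was 0.551 of the model mean, with a log2 difference of -0.81 (SE 0.22, 95% interval -1.28 to -0.33, limma adjusted p = 0.0152). It was 0.417 of the control mean, with a log2 difference of -1.21 (SE 0.22, 95% interval -1.69 to -0.73, limma adjusted p = 0.00180). With the number in the label as a block, both calls were lost (-0.34, limma adjusted p = 0.617, and -1.05, adjusted p = 0.0947). With its first digit as a block, only the call against model was lost (-0.78, limma adjusted p = 0.0570). The difference of -0.40 between model and control missed the threshold (SE 0.22, limma adjusted p = 0.166). Lpin1 varied more within the control and model groups than Gpam, Agpat3 or Pnpla2 did, and the spread within groups was wide enough that the interval for model against control ran from -0.88 to 0.07.

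Lpin2, which encodes a second lipin of the same activity that is prominent in liver, lies at chr17:71182560-71249817 on the plus strand. Control libraries were at 14.7, 18.1, 19.7, 19.7 and 29.0 FPKM and model libraries at 12.8, 10.1, 16.9, 16.1 and 14.8. BBBPH libraries were at 15.4, 13.3, 22.6, 12.5 and 13.2 FPKM. The groups overlapped, with control 3_4 the highest of all and model 1_4 the lowest. Lpin2 fell to 0.699 of the control mean in model livers, from 20.2 ± 5.31 to 14.2 ± 2.75 FPKM (SD, n = 5), a log2 difference of -0.47 (SE 0.18, limma adjusted p = 0.0488). This call was at the edge of the threshold and was made in 11 of the 30 other settings. It was lost when any library other than control 1_1, BBBPH 3_1 or model 2_1 was left out (adjusted p from 0.0508 to 0.126). Library weights (-0.31, limma adjusted p = 0.102), no filter (adjusted p = 0.0862), TPM (adjusted p = 0.0580) and robust=TRUE (adjusted p = 0.0509) ended it as well. Without control 3_4 the difference was -0.34 (limma adjusted p = 0.126), and it was -0.37 without model 1_4 and BBBPH 2_2 (adjusted p = 0.129) and also without control 2_1 (adjusted p = 0.170). The BBBPH mean of 15.4 ± 4.18 did not differ beyond the test from model (0.10, limma adjusted p = 0.715) or control livers (-0.37, adjusted p = 0.135). Without BBBPH 3_1, the highest of that group, the latter was -0.51 (limma adjusted p = 0.0367).

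The 2 diacylglycerol acyltransferases, which catalyse the same last step through unrelated proteins, passed the test in no comparison. Dgat1, at chr15:76502015-76511953 on the minus strand, had means of 5.89 ± 0.601 in the control, 5.00 ± 0.402 in the model and 5.42 ± 0.539 FPKM in the BBBPH livers (SD, n = 5). Its lowest and highest libraries were 4.97 and 6.58 in the control, 4.34 and 5.38 in the model and 4.87 and 6.29 FPKM in the BBBPH, so that all groups overlapped. The log2 difference between model and control was -0.20 (95% interval -0.36 to -0.04, limma adjusted p = 0.0511). It passed the threshold with median-ratio scaling (-0.33, adjusted p = 0.00507), with quantile scaling (-0.33, adjusted p = 0.00475), without control 2_1 (-0.25, adjusted p = 0.0174), without BBBPH 2_2 (-0.20, adjusted p = 0.0434) and without both of these and model 1_4 (-0.25, adjusted p = 0.0247). BBBPH against control, at -0.10 (limma adjusted p = 0.324), also passed it with median-ratio scaling (-0.25, adjusted p = 0.0414) and quantile scaling (-0.25, adjusted p = 0.0378).

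Dgat2, the acyltransferase that is tied to newly made fatty acids and the most abundant member here, lies at chr7:99153658-99182719 on the minus strand. Control libraries ranged from 178 to 234 FPKM, model libraries from 188 to 236 and BBBPH libraries from 190 to 313. The groups overlapped, with BBBPH 3_2 and 3_4 above every other library. Means were 215 ± 22.1, 212 ± 17.7 and 258 ± 48.6 FPKM (SD, n = 5) in control, model and BBBPH livers. The log2 difference between model and control was -0.01 with a 95% interval from -0.27 to 0.24 (limma adjusted p = 0.940). BBBPH stood 0.26 above model (limma adjusted p = 0.122) and 0.25 above control (adjusted p = 0.131). Without BBBPH 2_1, the lowest of its group, these were 0.37 (limma adjusted p = 0.0171) and 0.35 (adjusted p = 0.020).

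Mogat1 rose in model against control livers and fell in BBBPH against model livers. It encodes monoacylglycerol acyltransferase 1, which makes diacylglycerol from monoacylglycerol, and it is known to be low in normal mouse liver and higher in fatty liver. The gene lies at chr1:78510991-78538173 on the plus strand. Control libraries were at 0.548, 0.0578, 0.254, 0.0381 and 0.0998 FPKM, from 28, 3, 13, 2 and 5 fragments. Model libraries were at 5.86, 4.98, 4.28, 6.52 and 2.08 FPKM, from 317, 260, 223, 337 and 107 fragments. BBBPH libraries were at 0.536, 0.401, 0.426, 0.540 and 0.464 FPKM, from 29, 21, 22, 29 and 26 fragments. Every model library lay above every other library, and the lowest of them was model 3_4. BBBPH libraries lay within a narrow range at the upper end of the control libraries, below control 1_1 and above the other controls.

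**Figure D3:**
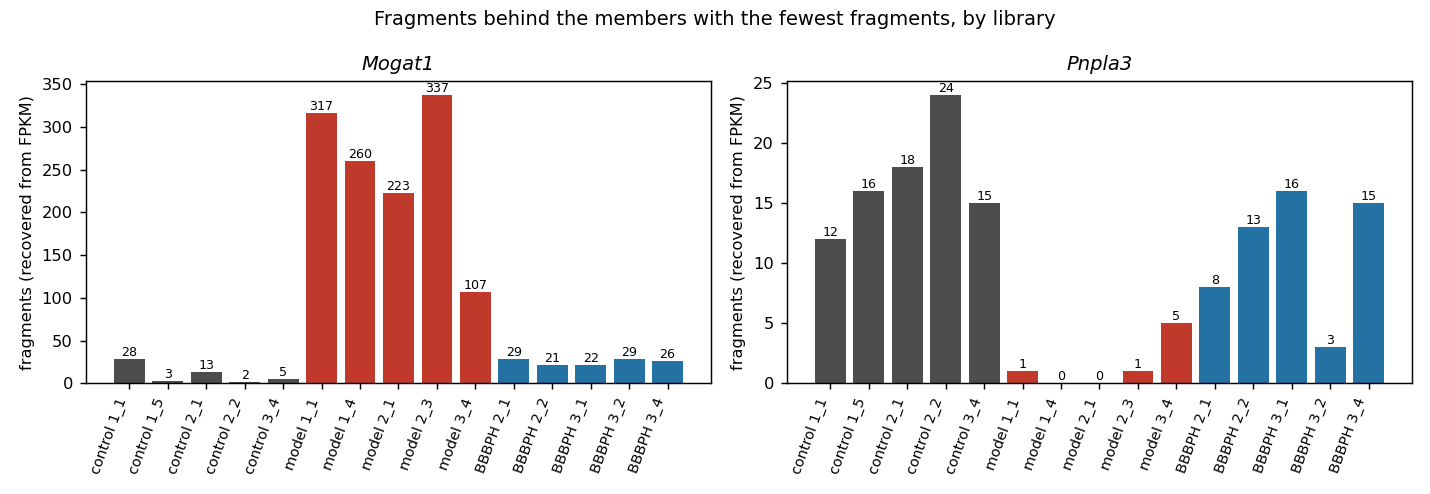
Fragments per library (vertical axes, recovered from the FPKM) behind Mogat1 and Pnpla3 in the 15 libraries, coloured by group. Mogat1 had 107 to 337 fragments in model libraries and 2 to 29 in the others, and Pnpla3 had 0 to 5 in model libraries and 3 to 24 in the others.

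Mean FPKM of Mogat1 was 0.200 ± 0.212 in the control, 4.75 ± 1.71 in the model and 0.473 ± 0.0632 in the BBBPH livers (SD, n = 5). The model mean was 23.8 times the control mean, with a difference of 2.21 in log2(FPKM + 1) (SE 0.19, 95% interval 1.82 to 2.61, limma adjusted p = 2.16e-06). The BBBPH mean was 0.0997 of the model mean, with a log2 difference of -1.90 (SE 0.19, 95% interval -2.30 to -1.50, limma adjusted p = 9.87e-06). Without control 1_1, whose 0.548 FPKM was the highest of the controls, the control mean was 0.112 FPKM and the ratio of means 42.2, and without any other control or model library the ratio was 19.8 to 27.1. Since the pseudocount holds down the differences of a gene at this level, the size depends on it. With voom on recovered fragment counts the log2 differences were 5.01 (adjusted p = 3.14e-05) and -3.21 (adjusted p = 0.000112). Both calls held in every setting without a block in which Mogat1 was tested (27 of 27). These settings refit largely the same libraries, so they are no independent support. Mogat1 entered most of them through the model group, in which it is high. BBBPH and control libraries did not differ beyond the test (0.31, limma adjusted p = 0.220), but a pseudocount of 0.1 gave a difference of 1.18 (adjusted p = 0.0290), and voom gave 1.79 (adjusted p = 0.0720). Exons of Mogat1 share 200 of 1558 bases with BC035947 on the opposite strand.

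Markers of adipocytes, another cell type with this enzyme route, were read beside Mogat1. Of a list of 7, summed FPKM were 0.337 to 7.68 in the control, 6.35 to 49.5 in the model and 0.209 to 1.67 in the BBBPH libraries. In the model libraries most of that sum was Cfd, the serum protease adipsin. Its median was 0.468 FPKM in the control, 37.8 in the model and 0.343 in the BBBPH libraries. The median sums were 1.03, 38.9 and 0.723 FPKM. Cfd was the only gene of the list above the filter. The other 6 (Adipoq, Lep, Retn, Plin1, Trarg1 and Aqp7) summed to at most 2.59, 1.11 and 0.731 FPKM in the 3 groups, and Lep was listed at 0 in all control libraries. Hepatic stellate cell markers summed to 184 to 214 FPKM in the control, 241 to 277 in the model and 215 to 237 in the BBBPH libraries. In model against control 6 of these 7 were called higher, where 29.9% of all tested genes were. Of 7 macrophage markers 2 were called higher and 0 lower. The part of these cell types in the result for Mogat1 was not tested.

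Pnpla2 fell in model against control livers and rose in BBBPH against model livers. It encodes adipose triglyceride lipase, which starts the breakdown of stored triglyceride, and lies at chr7:141455198-141460743 on the plus strand. Control libraries were at 34.7, 37.4, 39.9, 37.2 and 35.9 FPKM. Model libraries were at 27.9, 29.4, 30.5, 31.9 and 23.0 FPKM. BBBPH libraries were at 47.4, 39.3, 38.2, 38.2 and 45.0 FPKM. Every model library lay below every control and every BBBPH library, and model 3_4 was the lowest. Mean FPKM was 37.0 ± 1.93 in the control, 28.5 ± 3.46 in the model and 41.6 ± 4.30 in the BBBPH livers (SD, n = 5).

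The model mean of Pnpla2 was 0.771 of the control mean, with a log2 difference of -0.37 (SE 0.09, 95% interval -0.56 to -0.18, limma adjusted p = 0.00401), or -0.49 relative to the median of all genes. The BBBPH mean was 1.46 times the model mean, with a log2 difference of 0.53 (SE 0.09, 95% interval 0.35 to 0.72, limma adjusted p = 0.000478). Both calls held in 28 of 28 settings without a block, which are refits of largely the same libraries. BBBPH and control libraries did not differ beyond the test, with a log2 difference of 0.16 (95% interval -0.03 to 0.35, limma adjusted p = 0.181) that became -0.01 with median-ratio scaling. The summed hepatocyte markers were also lower in the model libraries (35604 to 61524 against 65481 to 73479 FPKM in control), and their part in the result was not tested. That sum is mostly Alb, with means of 46492 FPKM in control and 32629 in model livers. Of the 8 markers 4 were called lower and none higher, where 8.64% of all tested genes were called lower and 29.9% higher. Means in control and model livers were 9585 and 7392 FPKM for Apoa1 and 802 and 398 FPKM for Cps1. They were 1097 and 837 FPKM for Serpina1a and 393 and 285 FPKM for Tat. Those of Ttr were 4481 and 4446 FPKM, those of Cyp2e1 6319 and 6757 FPKM and those of Hnf4a 172 and 193 FPKM. Without model 1_4, where that sum was lowest, and BBBPH 2_2, the differences of Pnpla2 were -0.38 (limma adjusted p = 0.00833) and 0.56 (adjusted p = 0.0020).

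Pnpla3 encodes a lipid droplet protein related to Pnpla2, whose human counterpart is known for its link with fatty liver disease, and lies at chr15:84167837-84187236 on the plus strand. Its level was close to the limit of detection in all libraries. Control libraries were at 0.0709, 0.0930, 0.106, 0.138 and 0.0904 FPKM, from 12, 16, 18, 24 and 15 fragments. Model libraries were at 0.00557, 0, 0, 0.00584 and 0.0294 FPKM, from 1, 0, 0, 1 and 5 fragments. BBBPH libraries were at 0.0446, 0.0749, 0.0934, 0.0169 and 0.0807 FPKM, from 8, 13, 16, 3 and 15 fragments. All model libraries lay below all controls, while BBBPH 3_2 lay below model 3_4, so that those groups overlapped. A count of 0 allows up to 3 fragments, or 0.0174 FPKM, in model 1_4 and in model 2_1, which covers counting error only.

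The Pnpla3 means were 0.0997 ± 0.0249 in the control, 0.00816 ± 0.0122 in the model and 0.0621 ± 0.0310 FPKM in the BBBPH livers (SD, n = 5), from 85, 7 and 55 fragments in all. Without model 3_4 the model mean was 0.00285 FPKM. The gene was below the filter, and the fit without a filter, over 17051 genes, called it lower in model against control (-0.13 in log2(FPKM + 1), limma adjusted p = 0.000636) and higher in BBBPH against model (0.07, adjusted p = 0.020). It did not call it in BBBPH against control (-0.05, limma adjusted p = 0.104). These log2 differences are held close to 0 by the pseudocount of 1 FPKM. Exons of Pnpla3 share 105 of 1548 bases with Gm49513 on the same strand.

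Ratios of 2 related members within a library do not change when all values of that library are multiplied by 1 factor. There were 4 of them, each compared between groups with a 2-sided exact permutation test (252 arrangements, smallest possible p 0.00794), and 10 tests could be made, since Pnpla3 was listed at 0 in 2 model libraries. None passed after adjustment over the 10 tests, where 1 ratio alone at the smallest possible p would reach an adjusted p of only 0.0794. The ratio of Dgat2 to Dgat1 was 36.9 ± 6.86 in the control, 42.6 ± 4.08 in the model and 47.8 ± 9.34 in the BBBPH livers (SD, n = 5), with an exact p of 0.0794 for BBBPH against control (adjusted p = 0.198). The ratio of Lpin1 to Lpin2 was 2.02 ± 0.948, 2.09 ± 0.759 and 1.12 ± 0.454, with an exact p of 0.0317 for BBBPH against model (adjusted p = 0.159). In BBBPH 3_1 it was 0.464, the lowest of all, and the BBBPH range reached 1.55, above the lowest model library at 1.35. The ratio of Agpat2 to Agpat3 was 2.72 ± 0.277, 2.81 ± 0.444 and 3.04 ± 0.703, with adjusted exact p-values from 0.635 to 0.810. The ratio of Pnpla2 to Pnpla3 was 387 ± 79.0 in control and 963 ± 769 in BBBPH livers, with an exact p of 0.0159 (adjusted p = 0.159), and its model values from 3 libraries rest on 1 to 5 fragments of Pnpla3. The BBBPH mean was set largely by BBBPH 3_2, where the ratio was 2262 with 3 fragments of Pnpla3, and without it the mean was 638 ± 290 (SD, n = 4).

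Other genes of the pathway were read from 6 lists of 58 genes in all, of which 50 were tested. Model against control libraries had 14 higher and 8 lower, BBBPH against model libraries 11 higher and 12 lower, and BBBPH against control libraries 14 higher and 3 lower. The shares over all tested genes are those given above, at 38.6%, 26.5% and 28.1%. Of each list the genes with the smallest adjusted p are named, together with Abhd5, G0s2, Srebf1 and Pparg as known regulators of the members.

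Among other acylation enzymes of the glycerol phosphate route, 5 of 8 were tested. Gpat3 and Agpat5 rose and Gpat4 fell in model against control, the same 3 were called in the same directions in BBBPH against control, and none was called between BBBPH and model with all libraries. Gpat3, an acyltransferase of the endoplasmic reticulum with the same reaction as Gpam, was at 1.17 ± 0.237 FPKM in the control, 4.11 ± 1.42 in the model and 5.23 ± 1.38 in the BBBPH livers (SD, n = 5). Its log2 differences from control were 1.20 (limma adjusted p = 0.000136) and 1.49 (adjusted p = 0.000105). Against model, BBBPH was 0.30 higher (limma adjusted p = 0.233), and it was called at 0.56 higher without model 1_4 and BBBPH 2_2 (adjusted p = 0.0113) and also without control 2_1 (adjusted p = 0.0152). Agpat5 was at 2.05 ± 0.159, 2.87 ± 0.309 and 2.56 ± 0.121 FPKM, with a log2 difference of 0.34 for model against control (limma adjusted p = 0.000867). For BBBPH against control its difference was 0.22 (limma adjusted p = 0.0181), lost with median-ratio scaling (0.10, adjusted p = 0.283).

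Of 9 genes for glycerol and acyl-CoA supply, all tested, Gpd1 rose and Acsl3 and Acsl4 fell in model against control. In BBBPH against model, Acsl3 and Acsl4 rose and Gpd1, Aqp9 and Slc27a5 fell. Acsl3 and Acsl4 encode acyl-CoA synthetases, which activate fatty acids before they are used. Acsl3 was at 5.31 ± 0.903 FPKM in the control, 2.81 ± 0.651 in the model and 6.25 ± 0.832 in the BBBPH livers (SD, n = 5), with log2 differences of -0.73 (limma adjusted p = 0.000511) and 0.94 (adjusted p = 0.000111). Acsl4 was at 13.6 ± 2.69, 6.43 ± 1.29 and 12.3 ± 1.72 FPKM, with -0.98 (limma adjusted p = 0.000117) and 0.84 (adjusted p = 0.000510). For both genes the model libraries overlapped neither other group.

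Of 7 genes for further acyltransferases, the phosphatase that activates lipins and droplet budding, 6 were tested. Ctdnep1, Cnep1r1, Fitm1 and Bscl2 rose in model against control, and these 4 fell in BBBPH against model. Fitm1 encodes a membrane protein that acts in the budding of lipid droplets. It was at 12.7 ± 4.23 FPKM in the control, 45.6 ± 8.37 in the model and 20.3 ± 2.96 in the BBBPH livers (SD, n = 5), with log2 differences of 1.81 (limma adjusted p = 1.11e-05) and -1.12 (adjusted p = 0.000655). Bscl2, which encodes the droplet protein seipin, was at 9.25 ± 0.539, 13.6 ± 1.32 and 11.4 ± 0.547 FPKM, with 0.51 (limma adjusted p = 5.54e-05) and -0.24 (adjusted p = 0.0171). The latter was lost without model 1_4 and BBBPH 2_2 (-0.21, limma adjusted p = 0.0784) and also without control 2_1 (adjusted p = 0.0935).

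Of 14 other hydrolases and lipase regulators, 13 were tested. Hilpda rose and Abhd6 and Aadac fell in model against control, and Lipe, Mgll, G0s2, Abhd6 and Aadac rose in BBBPH against model, with none lower. Lipe encodes hormone-sensitive lipase, which acts after Pnpla2 on diacylglycerol, and Abhd6 encodes a monoacylglycerol lipase. Lipe was at 3.45 ± 0.333 FPKM in the control, 2.93 ± 0.743 in the model and 5.18 ± 0.313 in the BBBPH livers (SD, n = 5), and rose by 0.67 against model (limma adjusted p = 0.000497) and 0.48 against control (adjusted p = 0.00684). Abhd6 was at 3.76 ± 0.508, 2.72 ± 0.321 and 4.42 ± 0.426 FPKM, with -0.35 for model against control (limma adjusted p = 0.00522) and 0.55 for BBBPH against model (adjusted p = 0.000360).

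The known partners of the Pnpla2 protein differed from each other. Abhd5, its activator, was at 11.1 ± 1.67, 10.2 ± 1.70 and 10.8 ± 1.67 FPKM (SD, n = 5) in control, model and BBBPH livers and was called in no comparison (limma adjusted p from 0.484 to 0.879). G0s2, its inhibitor, was at 80.8 ± 28.4, 133 ± 68.0 and 380 ± 239 FPKM. In model against control the difference was 0.56 (limma adjusted p = 0.401), and 1.02 without model 1_4 and BBBPH 2_2 (adjusted p = 0.0446). G0s2 was 2.07 higher on the log2 scale in BBBPH than in control libraries (limma adjusted p = 0.00834), with no overlap. Against model it was 1.52 higher (limma adjusted p = 0.0370), a call that was lost without BBBPH 2_1 or 3_1 or model 1_1, 1_4 or 2_3 (adjusted p from 0.0506 to 0.0922). That call was also lost with no filter (limma adjusted p = 0.0738), robust=TRUE (0.0638), library weights (0.0974) and the 2-group fit (0.0634).

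Of 11 genes of the phospholipid branch, which draws on the same diacylglycerol, 10 were tested. Chka, Chkb, Cept1 and Chpt1 rose and Pcyt2 fell in model against control, and in BBBPH against model Pcyt2 rose and Chka, Cept1 and Chpt1 fell. Chpt1, for the last step of phosphatidylcholine synthesis, was at 30.9 ± 3.51 FPKM in the control, 51.2 ± 7.71 in the model and 27.4 ± 1.86 in the BBBPH livers (SD, n = 5), with log2 differences of 0.70 (limma adjusted p = 0.000142) and -0.87 (adjusted p = 4.18e-05). Pcyt2, for phosphatidylethanolamine synthesis, was at 132 ± 12.3, 105 ± 9.72 and 156 ± 12.8 FPKM, with -0.33 (limma adjusted p = 0.00692) and 0.58 (adjusted p = 0.000206). For BBBPH against control its difference was 0.25 (limma adjusted p = 0.0400), a call made in 17 of the 30 other settings. It was lost without model 1_4 and BBBPH 2_2 (limma adjusted p = 0.0508) and also without control 2_1 (adjusted p = 0.0661).

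Of 9 transcription regulators of the pathway, 7 were tested. Pparg and Nr1d1 rose and Srebf1 and Foxo1 fell in model against control, and in BBBPH against model Srebf1, Mlxipl and Ppara rose and Pparg and Nr1d1 fell. Pparg, a nuclear receptor known to drive fat storage genes, was at 1.70 ± 0.594 FPKM in the control, 6.94 ± 2.08 in the model and 2.18 ± 0.825 in the BBBPH livers (SD, n = 5), with log2 differences of 1.54 (limma adjusted p = 0.000133) and -1.33 (adjusted p = 0.000606). Nr1d1, a repressor of the circadian clock, was at 10.99 ± 2.71, 29.7 ± 6.87 and 9.13 ± 5.05 FPKM, with 1.35 (limma adjusted p = 0.00437) and -1.76 (adjusted p = 0.00109). Srebf1, which encodes the factor that drives fatty acid synthesis genes, was at 20.2 ± 6.94, 10.7 ± 2.70 and 27.3 ± 8.80 FPKM, with -0.82 (limma adjusted p = 0.0155) and 1.25 (adjusted p = 0.00166).

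**Figure D4:**
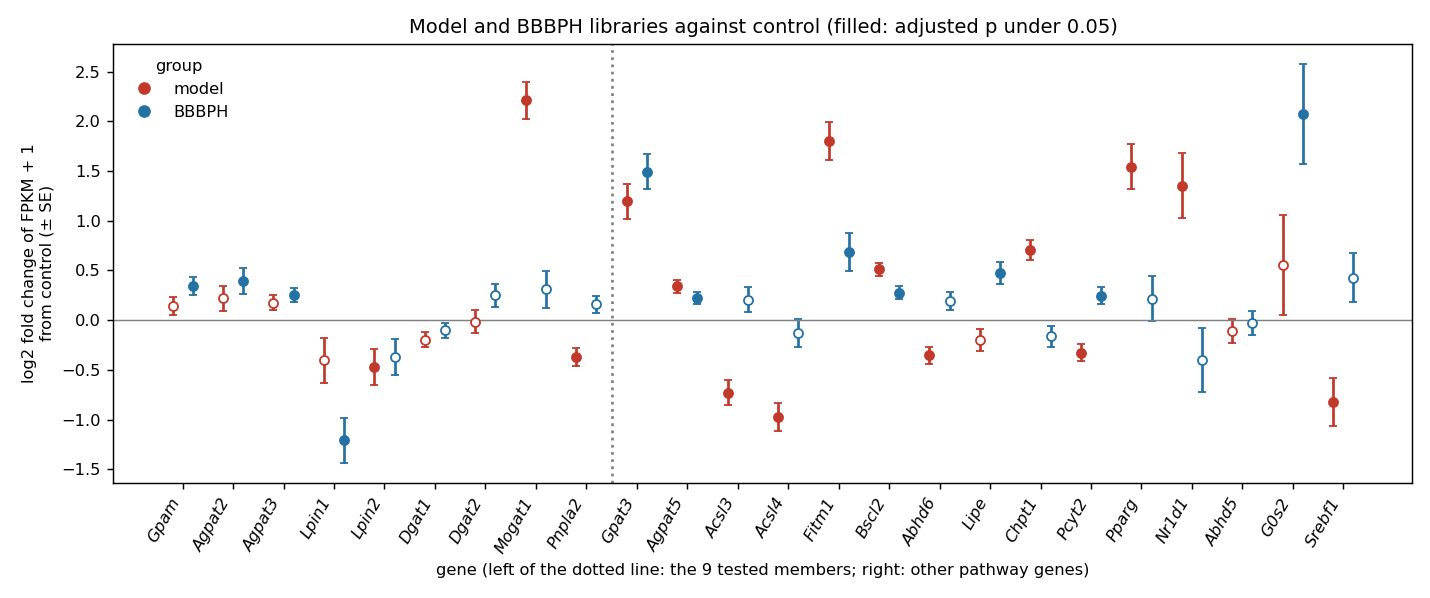
Difference from control in log2(FPKM + 1) with its SE (vertical axis) of the 9 tested members, left of the dotted line, and of the other named pathway genes, in model (red) and BBBPH (blue) libraries. Filled points were called. Mogat1, Fitm1 and Pparg stand above 1.5 in model and below 0.7 in BBBPH libraries, and Lpin1 is the lowest blue point.

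The genes whose pattern over the 15 libraries was most like that of the 3 members with the widest range of group means were found among 9566 other tested genes. Likeness was the root mean square difference of log2(FPKM + 1) after each gene was centred on its mean, so that a smaller value is more alike. The nearest to Mogat1 were Themis (0.32), Raet1d (0.32) and Clstn3 (0.33). Themis was at means of 0.120, 3.21 and 0.0890 FPKM in the control, model and BBBPH livers. Like Mogat1, it reached a mean of 1 FPKM only in the model group. Raet1d was at 0.862, 7.72 and 1.04 FPKM and Clstn3 at 1.26, 8.19 and 2.54 FPKM. The nearest to Lpin1 were Foxa2 (0.34), Lurap1l (0.35) and Ccdc117 (0.35). Foxa2 was at means of 12.9, 12.0 and 8.77 FPKM in these groups, a smaller change than that of Lpin1. The nearest to Pnpla2 were Slc25a12 (0.12), Ptpn4 (0.13) and Nrbp2 (0.13). Since a gene that varies little has small differences from any other such gene, these values are not compared between members.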

How the data were processed

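Libraries of 15 liver samples were prepared with the VAHTS Universal V6 kit from TRIzol RNA, per the labels' protocols. The authors deposited FPKM per gene and library. Per the submitters' processing notes, mm10 and the tools DESeq2, HTSeq, HISAT2 and fastp were used, in roles and versions that are not stated, and annotation, filters and strand setting are not given in the sources used here. The series table and the 15 single files held equal values (largest difference 0). The members, the lists and the libraries left out in alternatives were chosen with earlier results of these data known. The rule for other pathway genes named the 2 of each list with the smallest adjusted p, plus 4 regulators.

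Of 17527 genes, the 9575 that averaged 1 FPKM or more entered limma 3.58.1 (R 4.3.3) on log2(FPKM + 1), with 3 group means over 15 libraries (12 residual degrees of freedom), eBayes with trend=TRUE and Benjamini-Hochberg adjustment within each comparison. Fragment counts were recovered from whole-number ratios of the deposited FPKM within each gene for 15299 genes, with 100% of values within 0.02 of a whole number. They served to give depth and fragments, and voom on them was an alternative. No library repeated another, since chi-square per gene within groups was 30.7 to 358 and pure counting noise would give 1. Ratios were compared in Python 3.11.15 with scipy 1.17.1. Procedures were tested on simulated data. Positions came from GENCODE M21 and windows from RefSeq. The 30 other settings per comparison were voom, 2 blocks, library weights, TPM, quantile and median-ratio scaling, pseudocount 0.1, a filter at 5 FPKM or none, robust=TRUE, trend=FALSE, 2-group fits, 2 or 3 libraries left out, and each library left out in turn.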

Additional observations from a re-analysis of the deposited data

Results flagged for a closer look

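Within groups of 5 libraries, 75 sets of values (the members and the other named pathway genes in each group) were examined for a library far from the rest, and 3 had one, where chance gives about 1 in 20. Pnpla3 in model 3_4 was at 0.0294 FPKM, from 5 fragments, against 0 to 0.00584 FPKM in the other model libraries. Abhd6 in control 2_1, the library with skeletal muscle transcripts, was at 2.88 FPKM against 3.78 to 4.12 in the other controls. Abhd6 in BBBPH 3_1 was at 5.16 FPKM against 4.12 to 4.38 in the other BBBPH libraries.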

How the results depend on the processing

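Members called numbered 2 to 4 in model against control, 2 to 4 in BBBPH against model and 0 to 5 in BBBPH against control over the 30 other settings. In BBBPH against control they numbered 2 with median-ratio scaling, 2 with quantile scaling and 0 with the replicate block. All genes called fell to 2259, 1634 and 1502 in the 3 comparisons with a filter at 5 FPKM, where 5578 genes were tested, and in BBBPH against control to 1611 with median-ratio and 1545 with quantile scaling. With the replicate number as a block they were 1315, 305 and 185. Control 1_5, BBBPH 3_1 and 3_2, and model 1_4 and 2_3 bear numbers of no other library. In that block they add nothing to the group differences, and fewer residual degrees of freedom remain. The part of this loss of data in the calls that changed was not tested. Residuals of 8 same-numbered pairs correlated between -0.329 and 0.0239, and 0 of 10 libraries correlated best with their own number. So few pairs cannot decide what the numbers mark, and the labels do not say. In that block Mogat1 kept its calls (1.91 and -1.49, limma adjusted p = 0.00269 and 0.0128), as did Pnpla2 (-0.46 and 0.70, adjusted p = 0.0293 and 0.0273). Those of Lpin1 were lost (-0.34 against model, adjusted p = 0.617, and -1.05 against control, adjusted p = 0.0947), as were Lpin2 in model against control (adjusted p = 0.111) and Gpam, Agpat2 and Agpat3 in BBBPH against control (adjusted p = 0.310, 0.114 and 0.153). Of the calls of the other named pathway genes, that block ended 5 of 12 in model against control (Agpat5, Abhd6, Pcyt2, Nr1d1 and Srebf1), 9 of 12 in BBBPH against model (Acsl3, Fitm1, Bscl2, Abhd6, Pcyt2, Pparg, Nr1d1, G0s2 and Srebf1) and 5 of 7 in BBBPH against control (Agpat5, Bscl2, Lipe, Pcyt2 and G0s2), and it added Lipe in model against control. With the first digit of the number as the block, Lpin1 against model was lost at -0.78 (limma adjusted p = 0.0570). Gpam and Agpat3 (adjusted p = 0.0601 and 0.0762) and Pcyt2 (0.0879) were lost in BBBPH against control. Bscl2 and G0s2 (0.0754 and 0.149) were lost in BBBPH against model, and Lpin2 in BBBPH against control was gained (-0.59, adjusted p = 0.0255). BBBPH labels begin with 2 or 3 only, while control and model labels begin with 1, 2 or 3. The first-digit block is therefore partly tied to the groups.

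No value that was called, in the results as reported or under the setting, changed sign. Of uncalled ones, Gpam in model against control was -0.015 and Pnpla2 in BBBPH against control -0.011 with median-ratio scaling. Dgat2 in model against control was 0.10 with the block, 0.029 without 2 and 0.055 without 3 libraries, and -0.079 to 0.029 with each left out. Lpin2 in BBBPH against model was -0.056 with library weights, -0.18 and -0.12 with the blocks, and -0.037 to 0.17 with each library left out. In BBBPH against control, Acsl4 was 0.045 and 0.017 with the blocks, and Abhd5 was 0.0093 without 2 libraries and -0.098 to 0.030 with each left out. The log2 ratio of Lpin1 to Lpin2 in model against control was -0.084 without 2 and -0.083 without 3 libraries, -0.29 with the block and -0.084 to 0.32 with each left out. That of Agpat2 to Agpat3 was -0.048, -0.058, -0.086 and -0.048 to 0.092, and -0.024 to 0.19 in BBBPH against model with each left out. That of Dgat2 to Dgat1 in BBBPH against model was -0.056 with the block. Where a setting left out libraries or genes, fewer were tested, and for the other settings the cause was not tested. Depth limits Mogat1 outside the model group and Pnpla3 in every group, where few fragments stand behind each value.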
